A study of Mus musculus with 4 samples.

Results

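Muscle stem cells (satellite cells) that carried no transcript of commitment or division were selected on the UMIs of 14 genes in each cell, in the 4 libraries of the study. A cell barcode was kept if it had at least 1000 UMIs (unique molecular identifiers, each standing for 1 captured transcript), at least 500 genes and at most 15% mitochondrial UMIs. Among those, a cell was selected if its UMIs of Pax7, Chodl, Myf5, Fgfr4 and Calcr summed to at least 3, it had no UMI of Myog, Mymk, Mymx, Top2a or Mki67, and its UMIs of Ptprc, Csf1r, Cdh5 and Pdgfra summed to at most 1. This gave 975 selected cells among 28163 kept barcodes. The study profiled mononuclear cells of quadriceps and diaphragm from wild-type (WT) and mdx5cv mice, all at 14 weeks of age. The cells were cryopreserved, thawed and run on the 10x Genomics single-cell 3′ platform, and the labels name no enrichment for any cell type. mdx5cv mice carry a point mutation in the X-linked dystrophin gene Dmd and are a model of Duchenne muscular dystrophy. Each combination of genotype and muscle is 1 library, and the number of animals behind it is not stated in the labels. The 4 groups are therefore WT quadriceps with 464 selected cells, WT diaphragm with 117, mdx5cv quadriceps with 225 and mdx5cv diaphragm with 169. With 1 library a group there is no replicate and no test between groups. Every interval below is a 95% interval for counting error only, and a difference between groups is a difference between those libraries.

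Satellite cells lie between the muscle fibre and its basement membrane and depend on the transcription factor Pax7. In resting muscle most are quiescent, held so in part by Notch signalling, the calcitonin receptor Calcr and inhibitors of growth factor signalling such as Spry1. After damage they leave quiescence, switch on Myod1, divide, and then either return to the stem cell pool or express Myog and fuse. In dystrophin-deficient muscle fibres break down and regenerate repeatedly, and the stem cells that feed this repair lie in a matrix rich in collagen and in inflammatory cells.

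Libraries held 18837891 to 62780685 UMIs in all, with the fewest in WT quadriceps. The selected cells held 1036295 UMIs in WT quadriceps, 312031 in WT diaphragm, 1299089 in mdx5cv quadriceps and 941682 in mdx5cv diaphragm, and their median was 2039.5, 2232, 4924 and 4831 UMIs per cell in that order. WT cells thus held fewer UMIs than mdx5cv cells, so shares of cells with a UMI are given both as counted and after thinning every cell to 1000 UMIs. Expression is given as CPM, the UMIs of a gene summed over the selected cells of a library per 1000000 UMIs of those cells. In all that follows, 4 values in a row give the WT muscles first and then the mdx5cv muscles, quadriceps before diaphragm in each. No selected barcode occurred in more than 1 library. Dmd itself stood at 142, 67.3, 59.3 and 58.4 CPM, but 3′ counts do not read the mutated part of the transcript and so check nothing about genotype.

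The genes in the rule are a description of how the cells were chosen. The stem gene sum was 3 in 53, 16, 23 and 16 cells, and a further 33, 28, 17 and 19 cells fell just short, with a sum of 2 and all other limits met. The median sum was 6 in both WT libraries, 9 in mdx5cv quadriceps and 8 in mdx5cv diaphragm. Of the cells with a sum of at least 3, 234 of 1296 were dropped for other-lineage UMIs and 87 for UMIs of commitment or division. Pax7 was detected in 46.8%, 35.9%, 60.9% and 66.3% of the selected cells (27.2%, 17.9%, 27.1% and 20.1% after thinning). Below, shares of cells with a UMI are set beside those in Pdgfra-positive barcodes (fibroblasts), taken without any stem gene UMI, and for some genes in Ptprc-positive barcodes (leukocytes) taken in the same way.

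The name muscle stem cell held for most of the selected cells but not for all of them. Chodl alone brought in 180 cells that had no UMI of the other 4 stem genes. A set of 104 selected cells, 95 of them with Chodl alone, held at least 3 UMIs of the tendon genes Tnmd, Scx, Kera and Fmod: 35, 3, 54 and 12 cells, or 7.54%, 2.56%, 24.0% and 7.10%. In the 54 such cells of mdx5cv quadriceps Pax7 was at 0 CPM, the muscle adhesion gene Cdh15 at 12.8, the tendon proteoglycan gene Fmod at 4590.5 and Thbs4 at 16773. In the other selected cells of that library Pax7 was at 373 CPM and Cdh15 at 452. In the 54 cells, then, the tendon genes were high and Pax7 and Cdh15 were at or near 0. In WT quadriceps a further 25 selected cells held a UMI of the endothelial gene Cdh5 (0, 3 and 0 in the other libraries), and the lipid-binding protein gene Fabp4, high in capillaries, was at 1124, 22.4, 25.4 and 20.2 CPM. Results are therefore given for all selected cells and, where it matters, for a stricter set of core cells. Core cells had at least 1 UMI of Pax7, Myf5, Fgfr4 or Calcr and at most 2 UMIs of each of 6 groups of other-lineage genes. There were 343, 87, 128 and 117 core cells, 675 in all, and genes used to define them are no result within them. The limit on other-lineage UMIs is harder to meet at greater depth, and the core set holds a smaller part of the selected cells in mdx5cv quadriceps and mdx5cv diaphragm than in the WT libraries.

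Selected stem cells made up 9.45% (95% exact binomial interval 8.64 to 10.3) of kept barcodes in WT quadriceps and 1.56% (1.29 to 1.86) in WT diaphragm. In mdx5cv muscle they made up 2.70% (2.36 to 3.07) in quadriceps and 2.28% (1.96 to 2.65) in diaphragm. WT quadriceps stood above the other 3 libraries, whose shares lay within a narrow range. WT quadriceps was also the highest for core cells, at 6.98%, 1.16%, 1.54% and 1.58%. The difference between the diaphragms did not outlast equal depth: with every barcode thinned to 1000 UMIs before the rule was applied, the shares were 6.09%, 0.865%, 1.24% and 0.865%. Because these are shares, they also depend on the other cells captured. Of barcodes without a UMI of the leukocyte gene Ptprc, the selected cells made up 10.2%, 1.71%, 7.37% and 3.97%.

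As counted, a larger part of the stem cell lineage carried transcripts of commitment or division in mdx5cv muscle. Among cells that met the stem gene and other-lineage limits, 2 of 466 in WT quadriceps (0.429%, 0.0520 to 1.54) and 2 of 119 in WT diaphragm (1.68%, 0.204 to 5.94) had a UMI of Myog, Mymk, Mymx, Top2a or Mki67. In mdx5cv quadriceps it was 46 of 271 (17.0%, 12.7 to 22.0) and in mdx5cv diaphragm 37 of 206 (18.0%, 12.97 to 23.9). The intervals of both mdx5cv libraries lay above those of both WT libraries. The mdx5cv cells were also the deeper ones. With every barcode thinned to 1000 UMIs before the rule was applied, an alternative added after the data were seen, the counts were 2 of 329, 0 of 62, 3 of 91 and 0 of 58 (0.608%, 0%, 3.3% and 0%, with upper bounds of 2.18%, 5.78%, 9.33% and 6.16%). At that equal depth no difference between the genotypes was detectable.

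**Figure D1:**
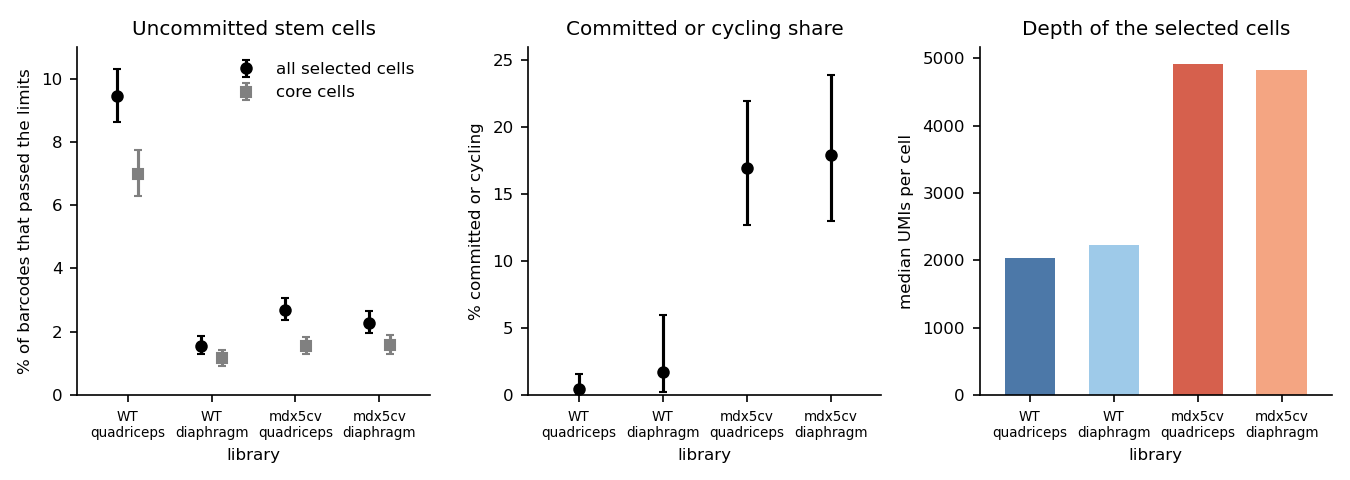
Share of kept barcodes that were selected stem cells or core cells, share of the lineage with commitment or division transcripts, and median UMIs per selected cell, for each of the 4 libraries; points are percentages with 95% exact binomial intervals, and bars in the last panel are UMIs. WT quadriceps has the highest share of selected cells (9.45%), and the share with commitment or division transcripts is 17.0% and 18.0% in the mdx5cv libraries against 0.429% and 1.68% in WT.

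Stem cell genes that the rule did not use showed an uneven picture. Of 18 such identity genes with enough counts to be tested (a mean of at least 20 CPM over the libraries), 3 higher and 4 lower were called in mdx5cv quadriceps against WT, where a call means at least 2-fold with an interval that excludes 1. Over all 5895 tested genes 792 (13.4%) were called higher and 362 (6.14%) lower. In the core cells of mdx5cv diaphragm 1 higher and 5 lower of the 18 were called, against 11.7% and 5.67% over all tested genes. Cdh15, encoding M-cadherin, which joins the stem cell to its fibre, was at 112, 157, 346 and 279 CPM, so the mdx5cv libraries held more of it than the WT libraries. It was 3.09-fold (95% interval 2.52 to 3.83) higher in mdx5cv quadriceps, while the diaphragm ratio of 1.78-fold (95% interval 1.31 to 2.46) did not reach 2. Cdh15 was detected in 22.6%, 33.3%, 57.8% and 65.7% of selected cells (9.27%, 11.97%, 21.3% and 22.5% thinned) against 0.15%, 0.0384%, 0.183% and 0.0444% of Pdgfra-positive barcodes, whose median depth was 3533, 4615.5, 5167.5 and 4964 UMIs. Itga7, the laminin-binding integrin chain of muscle cells, was at 59.8, 41.7, 215 and 199 CPM, higher in both mdx5cv libraries, by 3.59-fold (95% interval 2.72 to 4.81) in quadriceps and 4.77-fold (95% interval 2.72 to 9.12) in diaphragm. Vcam1, an adhesion receptor of satellite cells, was level at 414, 461, 396 and 459 CPM, and so was Cd82 at 298, 272, 226 and 304 CPM.

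The identity genes Chrdl2, Cd34 and Edn3 ran the other way. Chrdl2, a secreted antagonist of bone morphogenetic proteins on chromosome 7 (100006172 to 100034728, plus strand, GRCm38), was at 193, 163, 3.85 and 40.4 CPM. It was nearly lost from the mdx5cv quadriceps library, 50.1-fold (95% interval 21.1 to 156) lower, and 4.05-fold (95% interval 2.61 to 6.34) lower in diaphragm. Chrdl2 UMIs were found in 29.7%, 28.2%, 1.78% and 13.02% of selected cells (16.6%, 15.4%, 0.444% and 5.33% thinned) and in 0%, 0.0959%, 0% and 0.222% of Pdgfra-positive barcodes, so fewer of the deeper mdx5cv cells held one. Cd34, a surface sialomucin of quiescent stem cells, of fibroblasts and of vessels, was at 198, 337, 40.8 and 88.1 CPM, and in core cells at 178, 161, 39.7 and 47.8 CPM. Edn3, an endothelin ligand, was at 219, 141, 36.9 and 76.5 CPM. All 3 genes were lower in both mdx5cv libraries than in either WT library, although the diaphragm ratio of Edn3 was called in core cells only.

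Quiescence genes also split. Of 24 tested, 5 higher and 4 lower were called in quadriceps and 7 and 7 in diaphragm, against 667 (11.3%) higher and 370 (6.28%) lower over all tested genes in diaphragm. Spry1, a feedback inhibitor of fibroblast growth factor signalling (chromosome 3, 37639947 to 37644598, plus strand), was at 902, 676, 286 and 233 CPM. Both mdx5cv libraries lay below both WT libraries, by 3.15-fold (95% interval 2.79 to 3.56) in quadriceps and 2.91-fold (95% interval 2.4 to 3.53) in diaphragm. Its share of cells with a UMI was 81.2%, 69.2%, 65.8% and 63.9%, against 39.1%, 43.02%, 50.5% and 28.5% of Pdgfra-positive and 1.02%, 7.81%, 1.66% and 2.48% of Ptprc-positive barcodes. In selected cells after thinning it was 58.4%, 47.01%, 28% and 23.7%. Gas1, a growth arrest protein of the cell surface, was at 1107, 949, 554 and 543 CPM and did not pass 2-fold in the selected cells. Apoe, the lipid carrier, was at 1007, 375, 433 and 159 CPM, lower in mdx5cv in each muscle and lower in diaphragm than in quadriceps of each genotype.

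Cdkn1c moved in the opposite direction. Cdkn1c encodes p57, an inhibitor of cyclin-dependent kinases, and lies in an imprinted region of chromosome 7 (143458339 to 143461050, minus strand). It stood at 31.8 CPM in WT quadriceps, 38.5 in WT diaphragm, 355 in mdx5cv quadriceps and 1182 in mdx5cv diaphragm. The mdx5cv libraries were far above the WT libraries, by 11.1-fold (95% interval 7.82 to 16.4) in quadriceps and 30.7-fold (95% interval 17.5 to 59.7) in diaphragm, and core cells held 15 and 3 UMIs in the WT libraries against 477 and 1266 CPM in the mdx5cv libraries. Fibroblasts hold Cdkn1c too: its UMIs were in 5.39%, 6.84%, 39.6% and 51.5% of selected cells and in 32.3%, 34.9%, 35.7% and 43.1% of Pdgfra-positive barcodes, and thinned in 2.59%, 2.56%, 20% and 32.5% against 11.9%, 11.1%, 11.7% and 13.99%. In Ptprc-positive barcodes, with a median of 4001, 2969.5, 5662 and 5260 UMIs, the share was 3.73%, 2.49%, 2.79% and 3.54%. In the WT libraries the share in selected cells lay below that in fibroblasts, and in the mdx5cv libraries it lay above. Within the mdx5cv libraries the 10% of selected cells with most Cdkn1c held 71.4% of its UMIs in quadriceps and 56.3% in diaphragm. For Myod1 this share was 76.4% and 55.4%, so such unevenness is not particular to Cdkn1c.

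**Figure D2:**
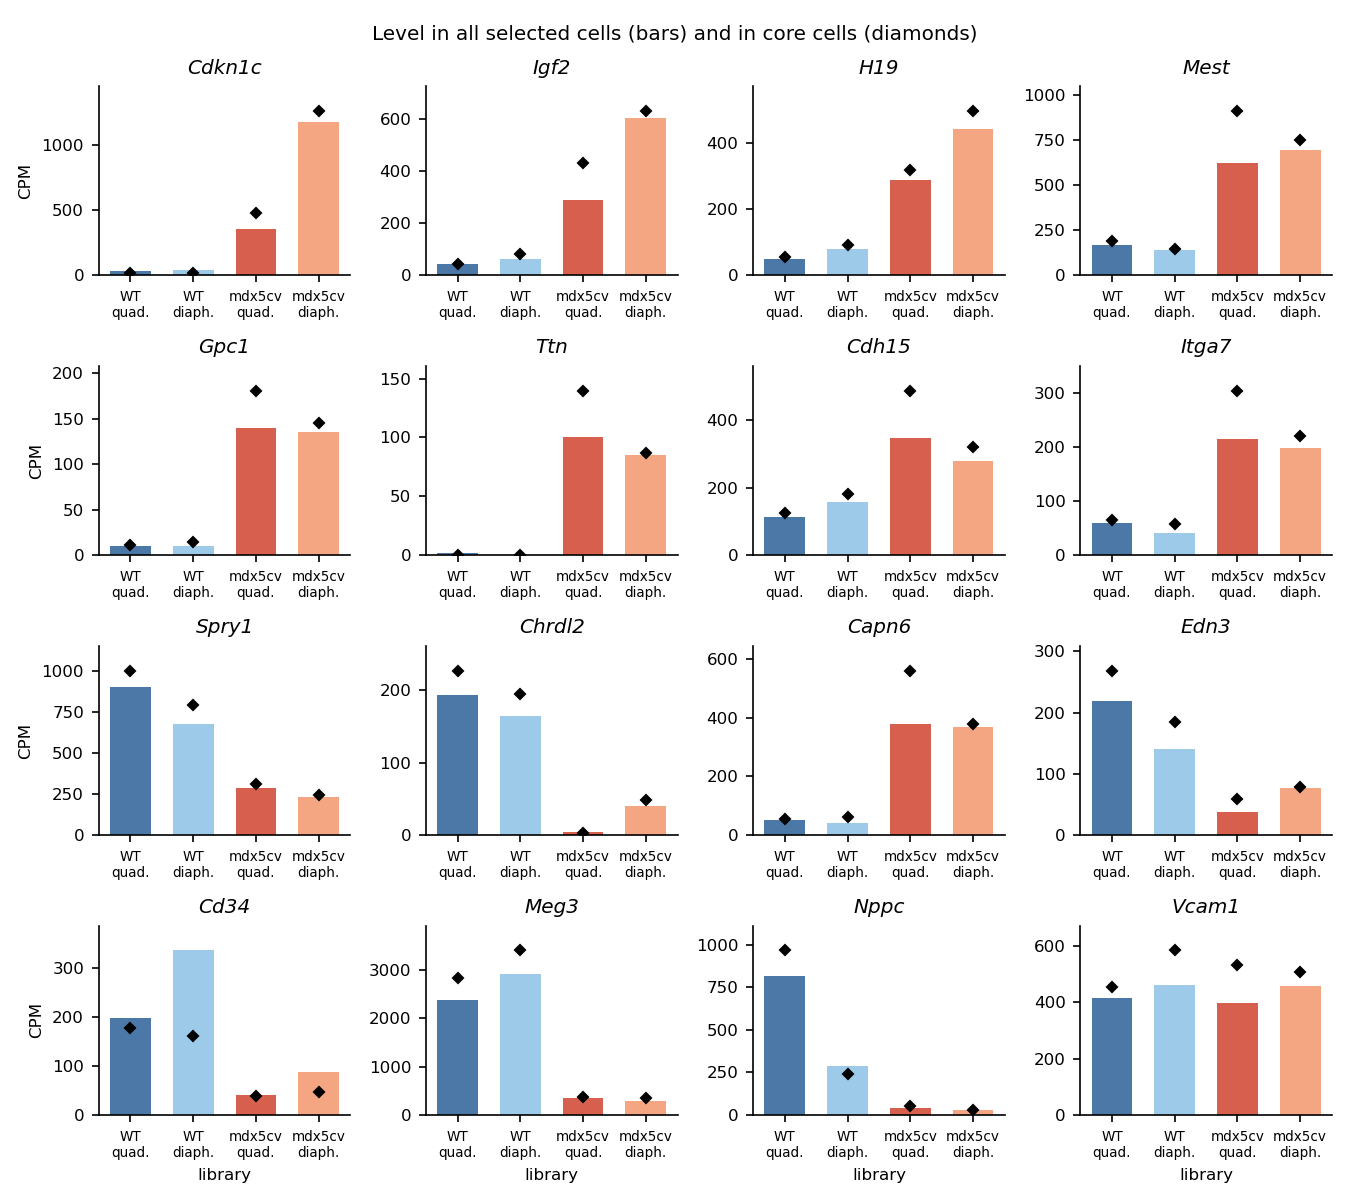
CPM of 16 genes in the selected cells (bars) and core cells (diamonds) of the 4 libraries, 1 panel per gene on its own linear axis from 0. The 4 libraries of Cdkn1c stand at 31.8, 38.5, 355 and 1182 CPM, while Chrdl2, Edn3 and Meg3 are higher in the WT libraries.

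Over all tested genes, the 2 genotype comparisons, which share no library, had 275 genes called higher in mdx5cv in both muscles, 34.7% of the quadriceps list and 41.2% of the diaphragm list. Called lower in both were 157 genes, 43.4% and 42.4% of the lists. Another 21 were called higher in quadriceps and lower in diaphragm, and 1, Hey1, the reverse. The split between higher and lower depends on scaling and, in diaphragm, also on which cells are kept. Median-of-ratios scaling moved the log2 ratios by -0.19 in quadriceps and -0.27 in diaphragm. It then gave 564 higher and 503 lower in quadriceps, and 325 and 601 in diaphragm, so that 35.1% of diaphragm calls were higher in place of 64.3%. With at most 5% mitochondrial UMIs 40.4% of diaphragm calls were higher. Without the cells above the median share of immediate-early genes, which left 9 WT diaphragm cells, it was 18.7%. The median log2 ratio over all tested genes was 0.21 in quadriceps and 0.25 in diaphragm as scaled to CPM, and list medians below are to be read against these. Counts of calls within lists are to be read against the shares over all tested genes. Those were 13.4% higher and 6.14% lower in quadriceps, and 11.3% and 6.28% in diaphragm.

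The largest differences in quadriceps included structural and cell cycle genes. Named here are the 12 genes called furthest higher and the 12 furthest lower by the interval bound nearest 1, leaving out genes of the rule and genes whose counts could largely come from other cells. Ttn, the giant spring protein of the sarcomere, was at 1.93, 0, 100.1 and 84.95 CPM, with 2 UMIs in WT quadriceps and none in WT diaphragm. It was 51.9-fold (95% interval 14.1 to 433) higher in quadriceps and at least 8.84-fold higher in diaphragm. Cacng1, a subunit of the skeletal muscle calcium channel, was at 0.965, 3.2, 63.1 and 80.7 CPM, and Nes, the intermediate filament of myogenic progenitors, at 5.79, 3.2, 70.05 and 60.5 CPM. All 3 muscle genes were at a few CPM in WT cells and above 60 CPM in mdx5cv cells. A minority of cells held the UMIs counted for Ttn and Cacng1. In mdx5cv quadriceps and diaphragm Ttn UMIs were in 22.2% and 17.8% of selected cells, and Cacng1 UMIs in 24.0% and 27.8%. Gpc1, a glypican that binds growth factors at the cell surface (chromosome 1, 92831645 to 92860779, plus strand), was at 9.65, 9.61, 140.1 and 136 CPM, 14.5-fold (95% interval 7.72 to 30.8) higher in quadriceps and 14.1-fold (95% interval 4.73 to 69.5) in diaphragm. Gpc1 was detected in 2.16%, 2.56%, 44.4% and 41.4% of selected cells (0.216%, 0%, 8.89% and 14.8% thinned) and in 1.2%, 0.806%, 9.27% and 3.77% of Pdgfra-positive barcodes. Cdkn2a, which encodes the cell cycle inhibitors p16 and p19Arf, was at 4.82, 0, 76.98 and 25.5 CPM, with 5 UMIs in WT quadriceps and none in WT diaphragm. It was highest in mdx5cv quadriceps, 15.95-fold (95% interval 6.61 to 50.2) above WT quadriceps.

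The other genes named as higher in mdx5cv quadriceps were Mmp13, Creb3l1, Islr, Gpc3, Capn6 and Gfod2, at 9.38-fold for Islr up to 17.8-fold for Gpc3 among those with UMIs on both sides. Capn6, a calpain-like protein, was also among the 12 in diaphragm, at 50.2, 41.7, 379 and 367 CPM. Mmp13, an interstitial collagenase, was at 96.99 CPM in mdx5cv quadriceps and had no UMI in the other 3 libraries, and the core cells held too few UMIs of it for a value. Apart from Mmp13, the named quadriceps genes, 23 with those lower in mdx5cv, were all called in core cells too.

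Among the genes lower in mdx5cv quadriceps, Nppc, which encodes C-type natriuretic peptide, was at 818, 288, 39.3 and 28.7 CPM. It was 20.8-fold (95% interval 15.7 to 28.2) lower in quadriceps and 10.1-fold (95% interval 6.48 to 16.1) lower in diaphragm. Meg3, a long non-coding RNA of the imprinted Dlk1 region, was at 2379.6, 2907, 349 and 291 CPM, 6.81-fold (95% interval 6.16 to 7.54) lower in quadriceps and 9.99-fold (95% interval 8.72 to 11.5) lower in diaphragm. Hsd11b1, the enzyme that regenerates active glucocorticoid, was at 274, 128, 23.1 and 15.9 CPM, and was highest in WT quadriceps. Others of them, Ttyh1, Ccl19, Pde10a, Ppp1r14a, Nap1l5, Filip1l and Clmn, were 9.65-fold (Clmn) to 50.6-fold (Ttyh1) lower.

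In diaphragm Cdkn1c and Ttn, given above, were among the 12 genes furthest higher in mdx5cv. Igf2, another of them and a growth factor of fetal and regenerating muscle (chromosome 7, 142650766 to 142666816, minus strand), was at 41.5, 60.9, 290.2 and 602 CPM, 9.89-fold (95% interval 6.27 to 16.5) higher in mdx5cv diaphragm and 6.99-fold (95% interval 5.09 to 9.83) higher in mdx5cv quadriceps. Plagl1, an imprinted zinc finger factor, was at 29.9, 48.1, 219 and 306 CPM and 6.36-fold (95% interval 3.79 to 11.5) higher in diaphragm. Lamb1, a laminin chain of early basement membranes, was at 4.82, 3.2, 83.1 and 99.8 CPM, and the matricellular gene Ccn4 at 24.1, 9.61, 134 and 119 CPM. In each of these genes both mdx5cv libraries exceeded both WT libraries. C1qtnf3, at 108, 60.9, 384 and 457 CPM, the angiotensin receptor gene Agtr2, at 0, 0, 26.2 and 56.3 CPM, and the non-coding RNA gene Morrbid, at 8.68, 0, 64.7 and 53.1 CPM, completed the 12 genes with Cdkn1c, Ttn, Capn6, Gpc1 and Cacng1.

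The genes named as lower in mdx5cv diaphragm were high in the WT diaphragm library above all. Mt1, a metallothionein that binds zinc and responds to metals and glucocorticoid, was at 2244, 8624, 1102 and 748 CPM and 11.5-fold (95% interval 10.6 to 12.6) lower. In barcodes without a stem gene UMI Mt1 was at 311, 1978, 786 and 813 CPM, also highest in WT diaphragm. Atf3, a stress-induced transcription factor, was at 461, 3079.8, 115 and 273 CPM, Cebpd at 553, 2660.0, 161 and 244 CPM and Cebpb at 1094, 2455, 220.2 and 276 CPM, the last 2 being factors of the inflammatory and acute phase response. In all 4 the WT diaphragm cells had the highest level of the 4 libraries. Slc10a6, a carrier of steroid sulphates, was at 46.3, 205, 11.5 and 2.12 CPM, and the eosinophil chemokine gene Ccl11 at 49.2, 497, 17.7 and 25.5 CPM. The rest were Olfr655, Rhoh, Meg3, H2-Q4, Mpp7 and Gem, with Gem the lowest ratio at 8.45-fold (95% interval 6.52 to 11.05). All 24 named diaphragm genes were called in core cells too. Without the cells above the median immediate-early share, however, only 12 of the 21 that still had a value were called, and Agtr2, Cacng1 and Morrbid changed sign, with 9 WT diaphragm cells left.

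Activation genes had medians close to those of all tested genes, but a larger part of them was called higher in mdx5cv. Over all tested genes 13.4% were called higher and 6.14% lower in quadriceps, and 11.3% and 6.28% in diaphragm. Of 26 tested, 9 higher and 2 lower were called in quadriceps and 7 and 3 in diaphragm, with median log2 ratios of 0.27 and 0.32 against 0.21 and 0.25 over all tested genes. Mest, an imprinted gene of growing mesoderm, was at 166, 138, 621 and 693 CPM and H19, the non-coding RNA next to Igf2, at 49.2, 80.1, 286 and 442 CPM. Cdk6, a kinase that drives entry into the cell cycle, had 1 UMI in WT quadriceps and stood at 0.965, 9.61, 77.7 and 92.4 CPM. All 3 were higher in both mdx5cv libraries than in both WT libraries. Myod1, the factor that marks activation and commitment, was not called: it was at 165, 215, 111 and 188 CPM and was detected in 24.8%, 33.3%, 21.3% and 37.3% of selected cells (12.9%, 15.4%, 7.56% and 17.2% thinned) and 0.301%, 0.0192%, 0.459% and 0.266% of Pdgfra-positive barcodes. Id3, an inhibitor of basic helix-loop-helix factors, was at 1913, 3730.4, 873 and 1315 CPM, and Myc at 42.5, 144, 30.02 and 43.5 CPM, and both were highest in WT diaphragm.

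In the Notch pathway receptors and effectors did not move as 1 group. Of 12 tested genes, 3 higher and 3 lower were called in quadriceps and 5 and 1 in diaphragm, and with median-of-ratios scaling 0 higher and 3 lower in quadriceps and 2 and 1 in diaphragm. The receptor gene Notch1 was at 78.2, 73.7, 158 and 161 CPM, Notch2 at 212, 138, 79.3 and 87.1 CPM and Notch3 at 291, 138, 431 and 297 CPM. Notch1 was thus higher and Notch2 lower in the mdx5cv libraries, the latter called in quadriceps only, by 2.68-fold (95% interval 2.11 to 3.42). The ligand gene Jag1 was at 34.7, 16.02, 70.8 and 58.4 CPM, and Numb, an inhibitor of the receptor, at 54.04, 76.9, 21.6 and 22.3 CPM. The target gene Heyl was at 153, 80.1, 270.2 and 216 CPM, and Hes1, the most general target, was not called in either muscle, at 372, 253, 213 and 157 CPM. Hey1, another target, was at 119, 38.5, 56.96 and 82.8 CPM, so it was lower in mdx5cv in quadriceps and higher in diaphragm.

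Among growth factor and cytokine receptors and co-receptors, 9 higher and 1 lower of 30 were called in quadriceps and 6 and 3 in diaphragm. With median-of-ratios scaling the counts were 8 higher and 3 lower in quadriceps and 3 and 4 in diaphragm. Met, the receptor of hepatocyte growth factor that wakes quiescent cells, was at 18.3, 16.02, 53.9 and 74.3 CPM and Sdc1, a heparan sulphate co-receptor, at 6.75, 3.2, 66.2 and 41.4 CPM, both higher in both mdx5cv libraries. The receptor gene Osmr (oncostatin M) was at 17.4, 99.3, 46.96 and 24.4 CPM, and Tnfrsf12a (TWEAK) at 26.1, 253, 86.2 and 99.8 CPM. For these 2 the WT diaphragm library was the highest and the WT quadriceps library the lowest. Of 12 tested genes of the p53 response and cell cycle arrest, 4 higher and 2 lower were called in quadriceps and 3 and 3 in diaphragm. Phlda3, a p53 target, was at 32.8, 19.2, 153 and 154 CPM and Bax, a driver of apoptosis, at 44.4, 38.5, 95.5 and 103 CPM, both higher in both mdx5cv libraries. Cdkn1a, which encodes p21, was at 32.8, 192, 163 and 52.03 CPM, and Cdkn2c, which encodes p18, at 128, 35.3, 25.4 and 19.1 CPM. Cdkn1a was thus higher in mdx5cv in quadriceps and lower in diaphragm.

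Matrix genes were higher in mdx5cv cells, most widely in quadriceps. All 12 tested fibrillar and associated collagens were called higher in quadriceps, with a median log2 ratio of 2.45, and 6 were called higher and 1 lower in diaphragm, with a median of 1.04. Of 19 basement membrane and integrin genes 12 higher and 0 lower were called in quadriceps and 5 and 1 in diaphragm, and of 23 injury matrix genes 12 higher and 0 lower in quadriceps and 6 and 4 in diaphragm. With median-of-ratios scaling, diaphragm counts were 3 higher and 1 lower for collagens and 3 and 4 for basement membrane. Without the selected cells above the overall median share of immediate-early genes, which leaves 9 WT diaphragm cells, the diaphragm median of the collagens was -1.26. Tendon genes, but not the summed fibroblast markers, were also highest in mdx5cv quadriceps. The summed level of 6 tenocyte markers, Chodl left out, was 2249, 292, 6234 and 693 CPM, and that of 12 fibroblast markers 4391, 8336, 4489 and 3860.1 CPM. In core cells they were 12.6, 9.49, 16.2 and 22.2 CPM and 1609, 1941, 1158 and 1261 CPM, and the part of such cells in the matrix result was not tested beyond the core set. Core cells hold at most 2 UMIs of each of 6 groups of other-lineage genes. That limit covers Lum, Pi16, Dpt, Clec3b and Smoc2 for fibroblasts and Tnmd, Scx, Kera and Fmod for tendon, not all markers summed above. In core cells 10 of the 12 collagens were called higher in quadriceps and 8 in diaphragm, and none lower. The corresponding basement membrane counts were 11 and 6, again with none lower. Injury matrix genes of core cells were 9 higher and 2 lower in quadriceps and 7 and 2 in diaphragm. Over all tested genes 16.2% were called higher and 7.01% lower in the core cells of quadriceps, and 11.7% and 5.67% in those of diaphragm.

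Col1a1 shows what the core set changes. It was at 817, 266, 4241 and 519 CPM in all selected cells and at 4.2, 33.2, 302 and 97.4 CPM in core cells. Col5a1 and Col5a3, the collagen V chains that in quiescent satellite cells signal through Calcr, were at 76.2, 119, 489 and 335 CPM and 111, 76.9, 517 and 202 CPM, and in core cells at 63.00, 66.5, 327 and 290.4 CPM and 91.00, 66.5, 493 and 199.9 CPM. For collagen V the mdx5cv libraries stood above both WT libraries in either set. In the basement membrane, Sparc, a collagen-binding glycoprotein, was at 2331, 1669.7, 4879.6 and 3375 CPM, the perlecan gene Hspg2 at 169, 144, 449 and 341 CPM, and Col18a1 at 37.6, 25.6, 222 and 86.02 CPM. The same order held, mdx5cv above WT in each muscle. Fibronectin, Fn1, was at 386, 144, 1802 and 203 CPM and in core cells at 11.2, 28.5, 181 and 82.01 CPM, highest in mdx5cv quadriceps in both. Postn, an injury matrix gene of fibroblasts and tendon cells, was at 208, 0, 1481 and 572 CPM and in core cells at 1.4, 0, 421 and 362 CPM.

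**Figure D3:**
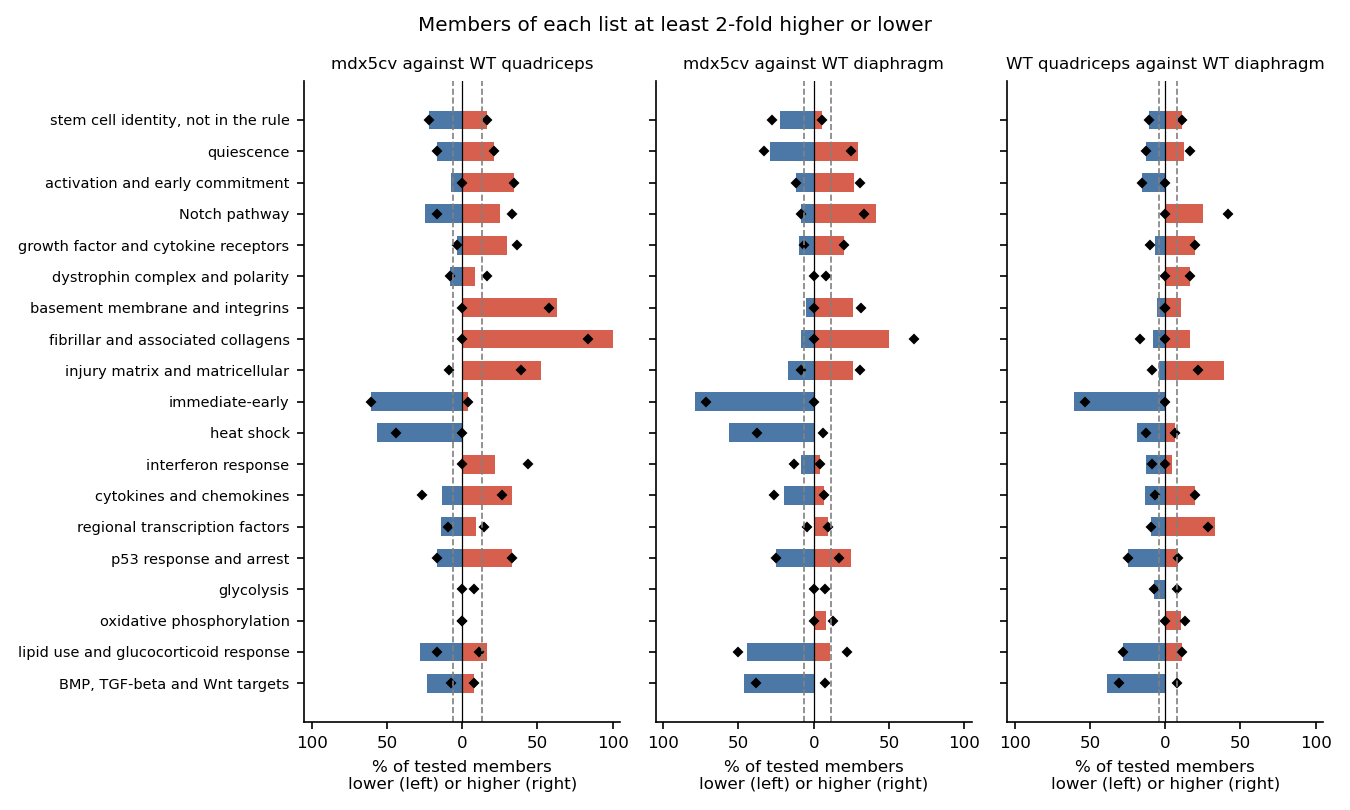
Percentage of the tested members of each gene list that were called higher (right of 0) or lower (left of 0) in the 3 comparisons between libraries, for selected cells (bars) and core cells (diamonds), with dashed lines at the percentage over all 5895 tested genes. Collagens lie furthest to the right in mdx5cv quadriceps, and immediate-early genes furthest to the left in all 3 panels.

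Immediate-early and heat shock genes were lower in mdx5cv cells and were highest in the WT libraries. Of 28 tested immediate-early genes 1 higher and 17 lower were called in quadriceps and 0 and 22 in diaphragm, with medians of -1.44 and -1.76 on the log2 scale. Of 16 heat shock genes 9 were called lower in each muscle and none higher. Fos was at 5856, 9348, 1118 and 2178 CPM, Junb at 3262, 5807, 598 and 1104 CPM and Jund at 4240.1, 10874, 1037 and 1995 CPM, each highest in WT diaphragm. The chaperone gene Dnajb1 was at 2852, 4096, 484 and 1183 CPM, and the small heat shock protein gene Cryab at 2208, 2041, 335 and 483 CPM. Hspa1a and Hspa1b, near-identical copies between which the split of reads is uncertain, were at 11040.3, 5493, 2805 and 2633 CPM and 13897, 8236, 4697 and 4332 CPM. Immediate-early genes made up 3.05%, 5.8%, 0.969% and 1.39% of the UMIs of selected cells, and heat shock genes 5.01%, 4.89%, 1.83% and 2.43%. The corresponding immediate-early shares were 0.947%, 2.09%, 0.887% and 1.02% in barcodes without a stem gene UMI and 0.78%, 2.07%, 0.471% and 0.616% in Pdgfra-positive barcodes without one. Other cells of the WT diaphragm library therefore also held more of these transcripts than other cells of the 3 other libraries, and the part of such a difference between libraries in the result was not tested.

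These genes are known to answer to factors that bind short promoter motifs, the serum response factor at the CArG box and heat shock factor at the heat shock element. The 250 bases before each RefSeq start (GRCm38.p6) were searched on both strands. A CArG box was in the window of 2 of 24 matched immediate-early genes (8.33%) and of 439 of 27025 genes in all (1.62%). The heat shock element was searched as GAA, any 2 bases, TTC, any 2 bases and GAA. It was in the window of 2 of 12 matched heat shock genes (16.7%) and of 139 of all genes (0.514%). Those 2 genes, Hspe1 and Hspd1, are neighbours on opposite strands and share the matched stretch, so they do not count as separate sites. A match describes the letters and says nothing of binding. Promoters that hold a match are shown because their genes were among those lower in mdx5cv quadriceps or diaphragm, with the motif in capitals, 5′ to 3′ on the strand of the gene.
Egr2, chr10:67537752-67537851, plus strand: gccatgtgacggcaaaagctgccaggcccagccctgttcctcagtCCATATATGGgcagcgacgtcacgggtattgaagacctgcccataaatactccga
Zfp36, chr7:28379232-28379331, minus strand: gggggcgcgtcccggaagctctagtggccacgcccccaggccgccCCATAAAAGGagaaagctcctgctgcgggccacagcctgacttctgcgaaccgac
Hspe1, chr1:55088014-55088121, plus strand: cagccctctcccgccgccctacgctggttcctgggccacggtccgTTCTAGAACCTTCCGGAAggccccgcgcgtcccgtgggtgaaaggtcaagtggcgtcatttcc
In the last, 2 overlapping matches fill the capitals, and the neighbouring gene Hspd1 reads from the other strand of the same stretch. Egr2, an immediate-early zinc finger factor, was at 58.9, 228, 25.4 and 46.7 CPM. Zfp36, which promotes decay of cytokine messages, was at 388, 1493, 267 and 239 CPM. The mitochondrial chaperonin gene Hspe1 was at 1061, 1320.4, 423 and 818 CPM.

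**Figure D4:**
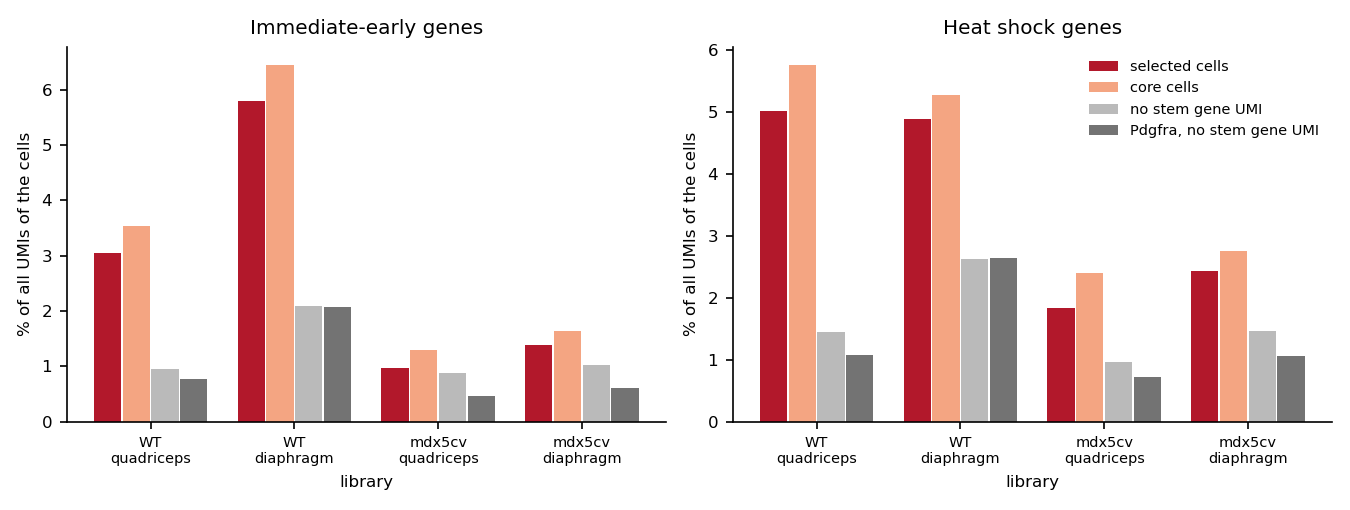
Immediate-early genes (one panel) and heat shock genes (the other) as a percentage of UMIs in each library, for selected cells, core cells, barcodes without a stem gene UMI, and Pdgfra-positive barcodes without one. In selected cells the immediate-early share is 3.05% and 5.80% in the WT libraries and 0.969% and 1.39% in the mdx5cv libraries.

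More interferon response genes were called higher in mdx5cv in quadriceps than in diaphragm, and the difference between the muscles was not tested. Of 23 tested interferon response genes 5 higher and 0 lower were called in quadriceps and 1 and 2 in diaphragm, and in core cells 10 higher and 0 lower in quadriceps and 1 and 3 in diaphragm. Isg15, a ubiquitin-like interferon product, was at 17.4, 32.05, 66.97 and 22.3 CPM and B2m, the light chain of class I molecules, at 252, 269, 575 and 297 CPM, both highest in mdx5cv quadriceps. The summed level of 13 macrophage and monocyte markers was higher in mdx5cv in both muscles, at 84.9, 38.5, 430.3 and 225 CPM, and in core cells at 78.4, 52.2, 361 and 256 CPM. Its part in this result was not tested. Of 15 cytokine and growth factor genes 5 higher and 2 lower were called in quadriceps and 1 and 3 in diaphragm. Vegfa, the vessel growth factor, was at 48.2, 48.1, 9.24 and 6.37 CPM and the neutrophil chemokine gene Cxcl1 at 130.3, 157, 22.3 and 24.4 CPM, both lower in mdx5cv in each muscle. Pdgfa, a ligand for fibroblast receptors, was at 78.2, 89.7, 247 and 194 CPM, higher in mdx5cv in each muscle.

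Metabolic genes were mostly level. None of 13 tested glycolysis genes was called in either muscle, and of 38 genes of oxidative phosphorylation none was called in quadriceps and 3 were higher in diaphragm. The 3 were Sdhc, at 45.4, 9.61, 83.9 and 88.1 CPM, Uqcrq, at 155, 128, 249 and 260.2 CPM, and Cox5a, at 157, 144, 302 and 375 CPM. Genes of lipid use and glucocorticoid response were more often lower, with 3 higher and 5 lower of 18 in quadriceps and 2 and 8 in diaphragm. Tsc22d3, a direct target of the glucocorticoid receptor, was at 547, 167, 91.6 and 64.8 CPM, 5.97-fold (95% interval 4.89 to 7.34) lower in mdx5cv quadriceps and 2.57-fold (95% interval 1.74 to 3.79) lower in diaphragm. Targets and antagonists of BMP, TGF-beta and Wnt signals gave 1 higher and 3 lower of 13 in quadriceps and 0 and 6 in diaphragm, among them Bambi, a decoy receptor, at 41.5, 106, 12.3 and 8.5 CPM. In the dystrophin complex and the polarity genes, 1 higher and 1 lower of 12 were called in quadriceps and none in diaphragm. Utrn, the dystrophin relative utrophin, was at 107, 57.7, 82.4 and 107 CPM and Dag1, the dystroglycan gene, at 710.2, 628, 1337 and 1173 CPM, neither called.

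Stem cells of WT quadriceps and WT diaphragm differed in 453 genes called higher (7.68%) and 248 lower (4.21%) in quadriceps. Median-of-ratios scaling moved the log2 ratios by -0.22 and gave 255 higher and 368 lower. The clearest named differences were in transcription factors of body position. Hoxc10, a posterior Hox gene (chromosome 15, 102966796 to 102971893, plus strand), was at 106, 0, 93.9 and 0 CPM and Hoxa10 at 115, 0, 35.4 and 0 CPM, with no UMI in either diaphragm library. In WT, Hoxc10 was at least 11.04-fold and Hoxa10 at least 11.9-fold higher in quadriceps. Meis2, a Hox partner (chromosome 2, 115863064 to 116065839, minus strand), had 1 UMI in WT quadriceps and stood at 0.965, 125, 10.01 and 192 CPM. These 3 genes were split by muscle in the same way in WT and mdx5cv cells, which share no library. Selected cells with a Hoxc10 UMI were 21.1%, 0%, 38.7% and 0% (10.6%, 0%, 12.4% and 0% thinned), against 22.6%, 0%, 39.3% and 0% of Pdgfra-positive barcodes. In Ptprc-positive barcodes the shares were 0%, 0%, 0.923% and 0%. Hoxc10 was thus found in fibroblasts of the same muscle at a share close to that in stem cells before thinning. In WT quadriceps the median was 2039.5 UMIs in selected cells and 3533 in Pdgfra-positive barcodes, so the closeness is not one at equal depth. With 3 cells as the limit that a count of 0 allows, 0 in 117 and 169 cells allows up to 2.56% and 1.78% of diaphragm cells to hold a Hoxc10 UMI.

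Of 21 tested regional transcription factors, 7 higher and 2 lower were called in WT quadriceps against WT diaphragm, and 8 higher and 5 lower in mdx5cv quadriceps against mdx5cv diaphragm. Over all tested genes the mdx5cv comparison called 383 higher (6.5%) and 66 lower (1.12%). Hoxc8 was at 82.02, 0, 50.8 and 12.7 CPM and Hoxc9 at 51.1, 0, 46.2 and 5.31 CPM, higher in quadriceps of each genotype. Pax3, the relative of Pax7 that marks stem cells of some muscles including the diaphragm, was at 21.2, 86.5, 10.01 and 45.7 CPM, and the T-box factor gene Tbx3 at 3.86, 60.9, 10.8 and 50.97 CPM. Both were higher in diaphragm of each genotype. The anterior genes Hoxb2, at 0.965, 19.2, 0 and 30.8 CPM, and Hoxb3, at 2.89, 25.6, 0.77 and 21.2 CPM, had too few counts to be tested. En1 was at 164, 60.9, 99.3 and 123 CPM. It was 2.69-fold (95% interval 1.67 to 4.59) higher in quadriceps in WT and was not called between the mdx5cv muscles, and the difference between genotypes was not tested. Between genotypes 2 higher and 3 lower of the 21 were called in quadriceps and 2 and 0 in diaphragm.

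**Figure D5:**
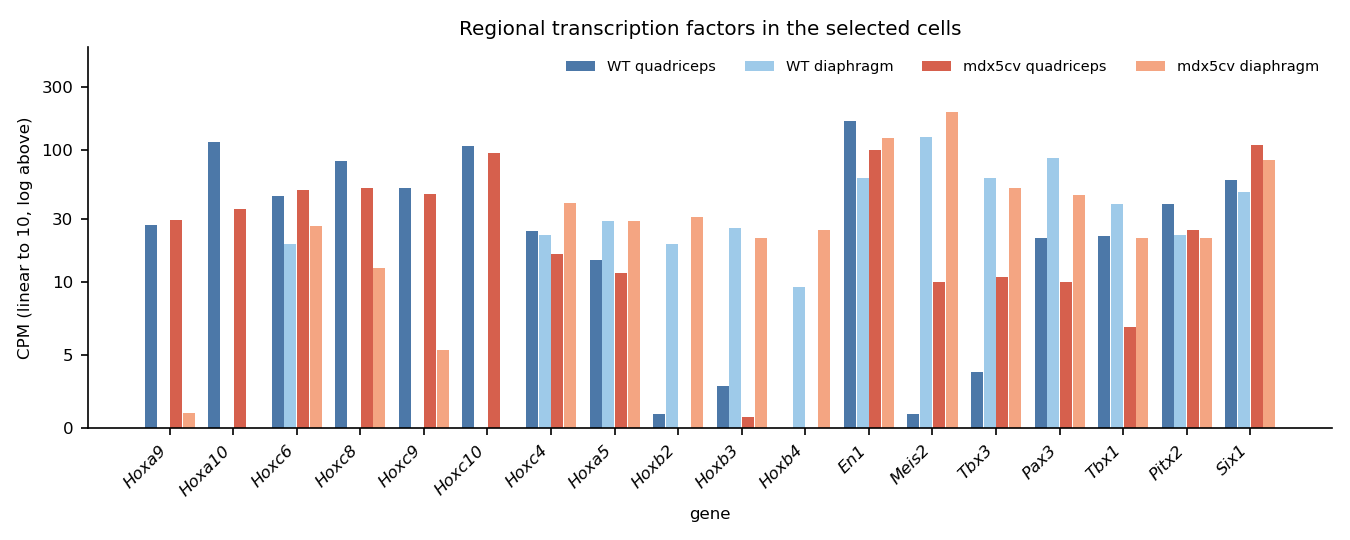
CPM of 18 transcription factors of body position in the selected cells of the 4 libraries, on an axis that is linear to 10 CPM and logarithmic above. Hoxa10 and Hoxc10 have no UMI in either diaphragm library.

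The remaining named genes between the WT muscles fell in 2 groups. Postn, Kera, Fmod, Tnc, Timp1, Col11a1 and Col22a1, higher in WT quadriceps, are genes of tendon or matrix, and in core cells both libraries held at most 3 UMIs of each. Kera and Fmod are themselves limited by the definition of the core cells. Ryr3, a calcium release channel, at 83.95, 0, 10.8 and 9.56 CPM, was also named as higher in quadriceps, beside Hoxc8, Hoxa10 and Hoxc10. Among those higher in WT diaphragm, Sbno2, Atf3, Cebpd, Tnfrsf12a and Ifrd1 are induced by cytokines or stress, and 17 of 28 immediate-early genes were called lower in WT quadriceps than in WT diaphragm. Also higher there were Ccl11, Olfr655, Tbx3 and the Hoxa-linked RNA gene Hotairm1, at 2.89, 60.9, 6.16 and 16.99 CPM. Without the selected cells whose immediate-early share was above the overall median of 2.07%, only 9 WT diaphragm cells were left, and 9 of the 20 named genes that still had a value were called. Hoxc8 and Ryr3 then changed sign, to log2 ratios of -0.065 and -0.15 against a library with no UMI.

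Cells with commitment or division transcripts were compared with the selected cells of the same library in mdx5cv muscle, as the WT libraries held only 2 each. Of 5682 tested genes 360 were at least 2-fold higher and 160 at least 2-fold lower in the selected cells of both mdx5cv libraries, and 43 and 70 when cells were thinned to 1000 UMIs. Spry1 was at 286 against 79.2 CPM in mdx5cv quadriceps and 233 against 49.1 in mdx5cv diaphragm, the selected cells first. Tenm4, an adhesion protein of quiescent cells, was at 78.5 against 7.47 CPM in mdx5cv quadriceps and 62.7 against 7.56 in mdx5cv diaphragm. The Notch receptor gene Notch3 was at 431 against 179 CPM in mdx5cv quadriceps and 297 against 71.8 in mdx5cv diaphragm and its target Hes1 at 213 against 100.1 CPM in mdx5cv quadriceps and 157 against 54.8 in mdx5cv diaphragm. All these stood higher in the selected cells of both muscles. Lower were Myod1, at 111 against 630.4 CPM in mdx5cv quadriceps and 188 against 695 in mdx5cv diaphragm, the cyclin gene Ccnd1, at 80.8 against 263 CPM in mdx5cv quadriceps and 132 against 297 in mdx5cv diaphragm, and Hes6, which opposes Hes1, at 50.8 against 125 CPM in mdx5cv quadriceps and 33.98 against 104 in mdx5cv diaphragm.

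Selected cells with a Myod1 UMI were also compared with those without one. Myod1 UMIs were in 115 of 464, 39 of 117, 48 of 225 and 63 of 169 selected cells. Of 5681 tested genes, 12 were higher in the cells with Myod1 in all 4 libraries, past 2-fold in at least 2 of them, and 110 were lower in the same sense. After thinning to 1000 UMIs the counts were 3 and 19. Among the 54 tested genes of the 3 matrix lists 19 were lower and none higher, and in core cells none was either. In core cells 3 genes in all were higher and 6 lower, the latter including H19 and Cdkn1c. Cdkn1c was at 19.6 and 21.6 CPM with and without Myod1 in the core cells of WT quadriceps, at 0 and 22.6 in WT diaphragm, at 191 and 604 in mdx5cv quadriceps and at 422 and 1759 in mdx5cv diaphragm. In the mdx5cv libraries the cells without a Myod1 UMI thus held more of it, while the WT values rest on 15 and 3 UMIs. At this depth a missing Myod1 UMI does not show that the gene is off.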

How the data were processed

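Single cells were read on the 10x Genomics 3′ chemistry, 1 library per group. UMI counts per gene and barcode were deposited by the authors as unfiltered matrices; per the submitters' processing notes they came from Cell Ranger 5.0.0 and mm10, while per the file headers the matrices were written by version 4. The annotation release was not given in the sources used here. Kept barcodes had at least 1000 UMIs, 500 genes and at most 15% mitochondrial UMIs. No doublets were removed; leaving out the 5% of barcodes with the highest Scrublet scores (scanpy 1.11.5) is an alternative. UMIs were summed over the selected cells of a library and scaled to CPM. Ratios have exact conditional 95% intervals (scipy 1.17.1, Python 3.11.15), checked on simulated counts, and shares have exact Clopper-Pearson intervals. Intervals and limits cover counting error only. A gene was tested at a mean of at least 20 CPM (5895 genes). A ratio against 0 UMIs uses 3 UMIs for the empty library and is written "at least". Named genes are the 12 highest and 12 lowest per comparison by the interval bound nearest 1, with at least 50 CPM and 10 UMIs on the higher side. Genes of the rule, mitochondrial, ribosomal, haemoglobin and predicted genes were left out of them, with Xist and 4 genes of the Y chromosome, as were genes with over 20% estimated origin in other cells. Beyond these, genes are named from 19 lists by function. The members, the lists and the core set were chosen with earlier results of these data known. In the markers of other cells, summed CPM in selected cells was 1652, 131, 80.8 and 57.3 CPM for endothelial, 8.68, 22.4, 13.9 and 58.4 CPM for lymphocyte, 667, 356, 704 and 692 CPM for mural, 125, 9.61, 85.4 and 26.5 CPM for Schwann, 43.4, 22.4, 76.98 and 89.2 CPM for myofibre and 4.82, 0, 0 and 0 CPM for red cell genes. Positions follow GENCODE M21, in which 32158 of 32285 gene identifiers were found. Alternatives tried were other depth, mitochondrial, stem gene and expression limits, thinning, scaling, subtraction of free RNA, equal weight per cell, the core set and removal of cells high in immediate-early genes. Some genes that the rule for named genes picks are not reported here.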

Additional observations from a re-analysis of the deposited data

Results flagged for a closer look

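Given here are 10 genes of the lists in which the 2 libraries of one muscle differed at least 2-fold in the opposite direction to those of the other muscle. With 1 library per group these differences between muscles were not tested. Log2 ratios of mdx5cv to WT are given for quadriceps and then diaphragm. In 3 of the 10 both directions were also called in core cells. Cdkn1a, encoding the cell cycle inhibitor p21, was at 2.31 and -1.89. Osmr, the oncostatin M receptor, was at 1.43 and -2.02. Tnfrsf12a, the TWEAK receptor, was at 1.73 and -1.34. The other 7 were not called both ways in core cells. Hey1, a Notch target, was at -1.06 and 1.11. Nid1, a linker of the basement membrane, was at 1.45 and -1.42, and in core cells at 1.39 and 1.11. The remaining 5 are known from fibroblasts or mural cells. They were Col14a1 at 5.01 and -1.63, Lum at 1.23 and -1.22, Pdgfrb at 1.45 and -1.47, Sfrp2 at 2.35 and -1.31, and Smoc2 at 2.34 and -1.14. Lum and Smoc2 help to define the core cells, so their core ratios are no result. The core ratios of Sfrp2 were -1.25 and 0.53, neither called. They rest on 5 UMIs in WT and 2 in mdx5cv quadriceps, and on 1 in WT and 4 in mdx5cv diaphragm.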

How the results depend on the processing

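No paired analysis was possible because each group is 1 library, and for the same reason no replicate could be left out. The share of selected cells, WT muscles first and quadriceps before diaphragm, was 6.09%, 0.865%, 1.24% and 0.865% with barcodes thinned to 1000 UMIs, 4.06%, 0.436%, 0.845% and 0.83% with at most 5% mitochondrial UMIs and 6.98%, 1.16%, 1.54% and 1.58% for core cells. In WT diaphragm it was 1.11% with at least 2000 UMIs and 1.93% with a stem gene sum of at least 2, and in WT quadriceps 8.37% with a sum of at least 4. Without Ptprc-positive barcodes the mdx5cv shares were 7.37% and 3.97%. The lineage share with commitment or division transcripts fell to 3.30% in mdx5cv quadriceps and 0% in both diaphragm libraries with barcodes thinned, which leaves fewer UMIs and fewer lineage cells. Counts of genes higher and lower in mdx5cv quadriceps were 1480 and 661 with a mean of at least 5 CPM and 319 and 175 with at least 50, and 235 were lower in core cells thinned to 1000 UMIs. In mdx5cv diaphragm they were 319 and 210 with at least 50 CPM, 362 and 232 in thinned cells, 236 and 172 in thinned core cells, and 325 and 601 with median-of-ratios scaling. A mitochondrial limit of 5% gave 210 higher and 310 lower in mdx5cv diaphragm, so that 40.4% of calls were higher. It gave 184 higher and 254 lower in WT quadriceps against WT diaphragm, with 42.0% of calls higher. In WT quadriceps against WT diaphragm, 207 and 135 were counted with at least 50 CPM, 263 higher in thinned cells, 195 in thinned core cells and 255 with median-of-ratios scaling. Removal of the cells above the median immediate-early share left 180, 9, 182 and 117 cells. With those, 127 genes were higher and 551 lower in mdx5cv diaphragm, and 67 higher and 358 lower in WT quadriceps against WT diaphragm. There the log2 ratio changed sign for Morrbid (-0.74), Cacng1 (-0.043) and Agtr2 (-0.67) in diaphragm, for Hoxc8 (-0.065) and Ryr3 (-0.15) between the WT muscles, and for the median of the collagens in diaphragm (-1.26). The 9 WT diaphragm cells left hold few UMIs, and a library at 0 UMIs counts as 3. Against committed or dividing cells, thinning gave 43 and 70 genes. The split by Myod1 gave 3 and 19 genes after thinning and 3 and 6 in core cells. Of the 24 named genes of mdx5cv quadriceps at least 21 were called under every alternative, and of those of mdx5cv diaphragm 20 of 23 at the 5% mitochondrial limit. Depth limits what can be said of WT diaphragm most, as its 312031 UMIs are the fewest.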

Other observations

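Imprinted genes, which are expressed from 1 parental copy, were gathered into a list of 29 after the values of several had been seen, so their count is a description. Of 22 with enough counts, 9 were called higher and 4 lower in mdx5cv quadriceps, and 8 and 5 in mdx5cv diaphragm. Over all tested genes 13.4% were called higher and 6.14% lower in quadriceps, and 11.3% and 6.28% in diaphragm. Called higher in both muscles were Igf2, H19, Cdkn1c, Plagl1, Mest, Peg10, Kcnq1ot1 and Ppp1r9a. Kcnq1ot1, the non-coding RNA of the Cdkn1c region, was at 94.6, 99.3, 224 and 375 CPM, and Peg10 at 15.4, 9.61, 36.9 and 38.2 CPM. Called lower in both were Nap1l5 and 3 maternally expressed transcripts of the Dlk1 region, Meg3, Rian and Mirg. Rian was at 496, 356, 70.05 and 39.3 CPM, and Mirg at 47.3, 41.7, 6.16 and 3.19 CPM. Not called in either muscle were Peg3, at 696, 490.3, 884 and 973 CPM, Grb10, at 147, 160.2, 218 and 311 CPM, and Gnas, at 4041, 3980.4, 2428 and 3243 CPM. In core cells 9 were higher and 4 lower in quadriceps and 8 and 4 in diaphragm. The core shares over all tested genes were 16.2% higher and 7.01% lower in quadriceps, and 11.7% and 5.67% in diaphragm.

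Igf2 and H19 UMIs were not spread evenly over the mdx5cv cells, but neither were those of genes outside the list. For Igf2, the 10% of selected cells with most of it held 55.2% of the UMIs in mdx5cv quadriceps and 41.3% in mdx5cv diaphragm, and for H19 84.1% and 57.5%. The same share was 45.1% and 48.4% for Gpc1, 52.7% and 36.1% for Fos and 76.4% and 55.4% for Myod1. Cells are ranked here by the gene itself, so a gene with few UMIs gives a high share. Igf2 UMIs were in 8.19%, 15.4%, 44.9% and 68.05% of selected cells (4.74%, 6.84%, 18.7% and 39.1% thinned) and in 2.26%, 4.76%, 6.88% and 7.99% of Pdgfra-positive barcodes, and H19 UMIs in 7.11%, 13.7%, 26.2% and 49.1% (3.66%, 8.55%, 12.9% and 24.3% thinned) against 1.95%, 8.17%, 20.9% and 14.7%.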
